A study of Homo sapiens with 74 samples.

Results

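The 4 ATAC-seq libraries described here measure open chromatin in wild-type HAP1 cells in which SMARCA4 was knocked down, beside wild-type HAP1 cells given a control knockdown. They were chosen by their titles, 2 libraries with the SMARCA4 knockdown and 2 with the control knockdown, out of 74 samples in the series. HAP1 is a near-haploid human line derived from a chronic myeloid leukaemia. The series removed subunits of the BAF complexes from this line, by knockout or knockdown, and read the accessible chromatin of each. Other groups used for comparison were ARID2 knockout cells with the SMARCA4 or the control knockdown. Further ones were wild-type cells with the ARID2 knockdown or with both knockdowns, and SMARCA4 knockout cells with the control knockdown. A separate table held knockout clones and untreated wild-type cells. SMARCA4 knockout cells with the ARID2 knockdown were not tested themselves, but entered the joint fit of the knockdown libraries and the mean accessibility. The labels give no dose, no time after the knockdown and no measure of how much SMARCA4 remained, and they do not name the clone of the SMARCA4 knockout cells that were given the control knockdown. ATAC-seq reads DNA, so the loss of SMARCA4 RNA or protein was not checked.

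SMARCA4, also called BRG1, is an ATPase of the BAF (SWI/SNF) complexes, which slide or evict nucleosomes and keep enhancers accessible. A complex carries either SMARCA4 or its paralogue SMARCA2 as its motor. Canonical BAF holds ARID1A or ARID1B, whereas the PBAF form holds ARID2 and PBRM1. In ATAC-seq a transposase inserts adapters into DNA that nucleosomes leave free, so the reads in a region measure its accessibility.

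The 4 libraries held 10313059 and 5674304 counts with the SMARCA4 knockdown, against 11355471 and 7890257 counts with the control knockdown. All 16 libraries of the knockdown table ranged from 5355899 to 12432292 counts. Depth-scaled values are given in CPM, which are counts scaled to the same library size. Over regions of above-median accessibility, log2 CPM of the SMARCA4 knockdown replicates correlated at r = 0.905 and that of the control replicates at r = 0.938. Regions are given by their hg19 coordinates as the files have them, with the width as end minus start. Gene annotation and sequence of that build were not used here.

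SMARCA4 knockdown changed the accessibility of 15375 of 145617 regions tested, which is 10.6%, and most of these lost accessibility. Accessibility fell at 11566 regions (7.94%) and rose at 3809 regions (2.62%), at an adjusted p of 0.05 in edgeR's quasi-likelihood test with Benjamini-Hochberg adjustment and the replicate number as a block. Lower regions thus made up 75.2% of the calls. Among lower regions the median log2 fold change was -1.44, with quartiles of -1.77 and -1.16. Among higher regions it was 1.18, with quartiles of 0.98 and 1.45. The median over all regions tested was 0.05. Of the called regions, 10150 were at least 2-fold lower (6.97% of those tested) and 2782 at least 2-fold higher (1.91%). At least 4-fold changes were found at 1541 lower and 155 higher regions. Every call at a region of below-median mean CPM over the 16 libraries was at least 2-fold. Fold sizes of called regions are thus limited by what can pass the threshold at low counts.

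The number of calls depended on the replicate block and on each of the 4 libraries. Without the block, 7216 regions were lower and 1125 higher, and all of them were also called with it. The block rests on replicate numbers, which the labels do not tie to a shared day or culture. Leaving out SMARCA4 knockdown replicate 1 left 4643 lower and 986 higher regions, and leaving out its replicate 2 left 6625 and 1301. Without control knockdown replicate 1 there were 7374 lower and 1703 higher regions, and without its replicate 2 there were 5941 and 1434. Each of these fits has 1 library fewer in a group of 2. The labels do not tell whether replicates were grown separately. The p-values reflect only the spread within the 8 groups of the knockdown table, other genotypes and knockdowns included.

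**Figure D1:**
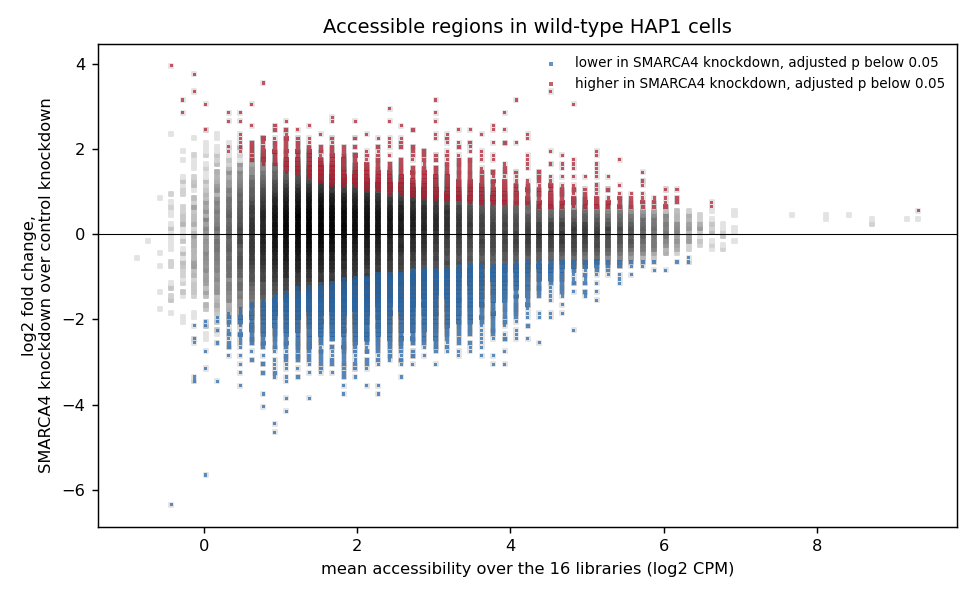
Log2 fold change of SMARCA4 knockdown over control knockdown (vertical axis) against mean accessibility over the 16 libraries in log2 CPM (horizontal axis), binned in squares. Grey squares hold all regions tested, darker with more regions, blue squares hold the 11566 lower regions and red squares the 3809 higher regions, larger with more regions; the blue cloud is the larger and reaches farther from 0.

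The same loss was seen as a share of the reads. The 11566 lower regions held 5.2% and 5.43% of the depth-scaled reads in the SMARCA4 knockdown libraries, against 12.4% and 13.3% in the control knockdown libraries. The 3809 higher regions held 4.57% and 4.34% with the SMARCA4 knockdown, against 2.17% and 2.02% with the control. These shares describe regions that the same libraries selected. A typical lower region had a median of 3.35 CPM with the SMARCA4 knockdown and 9.32 CPM with the control. A typical higher region had 7.88 CPM with the SMARCA4 knockdown and 3.39 CPM with the control, while the median over all regions tested was 3.52 CPM in both groups.

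Both replicate pairs showed the calls. Taken apart, on log2(CPM + 0.5), the lower regions had a median difference of -1.3 in replicate 1 and -1.32 in replicate 2, and the higher regions one of 1.03 and 1.09. Of the 11566 lower regions, 11562 were below 0 in both pairs, and 3801 of the 3809 higher regions were above 0 in both. Over all regions tested, 31.3% were below 0 and 34.5% above 0 in both pairs. Both SMARCA4 knockdown libraries lay below both control libraries at 99.8% of lower regions, and above both at 98.7% of higher regions, against 24.3% and 24.1% of all regions. The called regions were selected on these 4 libraries. Over the 72808 regions of above-median accessibility, without selection on the outcome, the differences of the 2 pairs correlated at r = 0.64 across regions, which are not independent replicates.

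Regions named below passed the threshold, were above the median accessibility of 3.6 CPM and had no overlap between libraries of the 2 groups. Accessibility was the mean over all 16 libraries, the compared ones included, so a region can have passed through the group where it was high. These conditions were met by 8323 lower and 2834 higher regions, of which the 10 with the largest fold change in each direction are described.

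The largest loss was at a region of 629 bp on chromosome 4, chr4:171226654-171227283. It had 1.42 and 0.662 CPM in the SMARCA4 knockdown libraries, against 13.2 and 15.7 CPM in the control libraries. Both knockdown libraries were close to empty, and the groups lay far apart. The log2 fold change was -3.74 ± 0.43 (SE), with an adjusted p of 7.32e-11 in edgeR's quasi-likelihood test. On chromosome 8, chr8:108370426-108371038 had 0.655 and 1.32 CPM with the SMARCA4 knockdown and 11.2 and 10.9 CPM with the control, a log2 fold change of -3.55. A second region of chromosome 4, chr4:115807717-115808459, had 0.873 and 0.662 CPM with the SMARCA4 knockdown and 8.58 and 9.77 CPM with the control, a log2 fold change of -3.52. In both, the knockdown libraries were again near the bottom of the scale and the control libraries lay close together.

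The region chr12:74412381-74413133 had 1.09 and 1.65 CPM with the SMARCA4 knockdown, against 13.6 and 17.2 CPM with the control, and fell by 3.5 ± 0.401 (SE) on the log2 scale. On chromosome 13, chr13:82151540-82152171 had 1.64 and 0.331 CPM with the SMARCA4 knockdown, against 10.7 and 10.8 CPM with the control. Its knockdown libraries differed more from each other than its controls did, yet both stayed far below them, and the log2 fold change was -3.36. The region chr7:15285271-15286063, with 1.64 and 2.48 CPM in the SMARCA4 knockdown and 18.3 and 22 CPM in the control, was the most accessible of the 10 in control cells. It fell by 3.32 ± 0.382 (SE) on the log2 scale.

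The other 4 of the 10 were chr12:88641639-88642315, chr7:111960992-111961846, chr6:94673851-94674555 and chr4:92287555-92288170, with log2 fold changes of -3.31, -3.22, -3.18 and -3.17. Over all 10, the SMARCA4 knockdown libraries had 0.331 to 2.48 CPM and the control libraries 7.2 to 22 CPM. Widths ran from 612 to 854 bp, around the median of 622 bp over the table's regions. All 10 passed the threshold without the block, with adjusted p of at most 1.81e-05, and without any single library of the 4, with adjusted p of at most 0.00225, both in edgeR's quasi-likelihood test.

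The smallest p-values belonged to broader or more accessible regions that kept some signal. On the X chromosome, chrX:81913717-81914458 had 5.24 and 3.8 CPM with the SMARCA4 knockdown, against 36.4 and 37.2 CPM with the control. The log2 fold change was -3.02 ± 0.284 (SE), with an adjusted p of 8.66e-15 in edgeR's quasi-likelihood test. Next came chr12:89609717-89610761, with 5.13 and 5.46 CPM in the SMARCA4 knockdown and 45.6 and 40.6 CPM in the control, and chr7:147687869-147689138, with 6.44 and 5.95 CPM in the SMARCA4 knockdown and 40.7 and 43.5 CPM in the control. In all 3 regions the replicates of each group lay close together and no libraries overlapped. Their log2 fold changes were -3.02, -3.03 and -2.75.

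Gains were led by regions of low to ordinary accessibility in control cells. Over the 10 largest gains the control libraries had 0.683 to 5.46 CPM, where the median over all regions tested was 3.52 CPM. The largest was chr1:202427666-202429284, a broad region of 1618 bp with 35.3 and 22.7 CPM in the SMARCA4 knockdown and 3.71 and 1.93 CPM in the control. It rose by a log2 fold change of 3.35 ± 0.292 (SE), with an adjusted p of 2.43e-16 in edgeR's quasi-likelihood test. On chromosome 10, chr10:121687715-121688416 had 39 and 21.5 CPM with the SMARCA4 knockdown and 4 and 2.57 CPM with the control, a log2 fold change of 3.19. On chromosome 4, chr4:39666464-39667303 had 58.5 and 30.1 CPM with the SMARCA4 knockdown and 5.46 and 4.76 CPM with the control, a log2 fold change of 3.08. In each, replicate 1 of the knockdown stood well above replicate 2, and both were far above the controls. These 3 regions also had the smallest p-values among the gains.

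Among the other gains, chr22:36306234-36306922 had 14.8 and 6.45 CPM with the SMARCA4 knockdown and 0.683 and 1.8 CPM with the control, a log2 fold change of 3.1 ± 0.408 (SE). The region chrX:31826369-31826870 had 10 and 7.44 CPM with the SMARCA4 knockdown and 1.07 and 1.8 CPM with the control, a log2 fold change of 2.65. The other 5 were chr11:85962349-85962990, chr5:18584575-18585715, chr21:37727347-37728157, chr15:63553393-63554059 and chr5:87181852-87182430, with log2 fold changes of 2.96, 2.89, 2.82, 2.64 and 2.63. Over the 10, the SMARCA4 knockdown libraries had 5.46 to 58.5 CPM and the control libraries 0.683 to 5.46 CPM. All 10 passed the threshold without the block, with adjusted p of at most 9.17e-05, and without any single library, with adjusted p of at most 0.0052, both in edgeR's quasi-likelihood test.

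**Figure D2:**
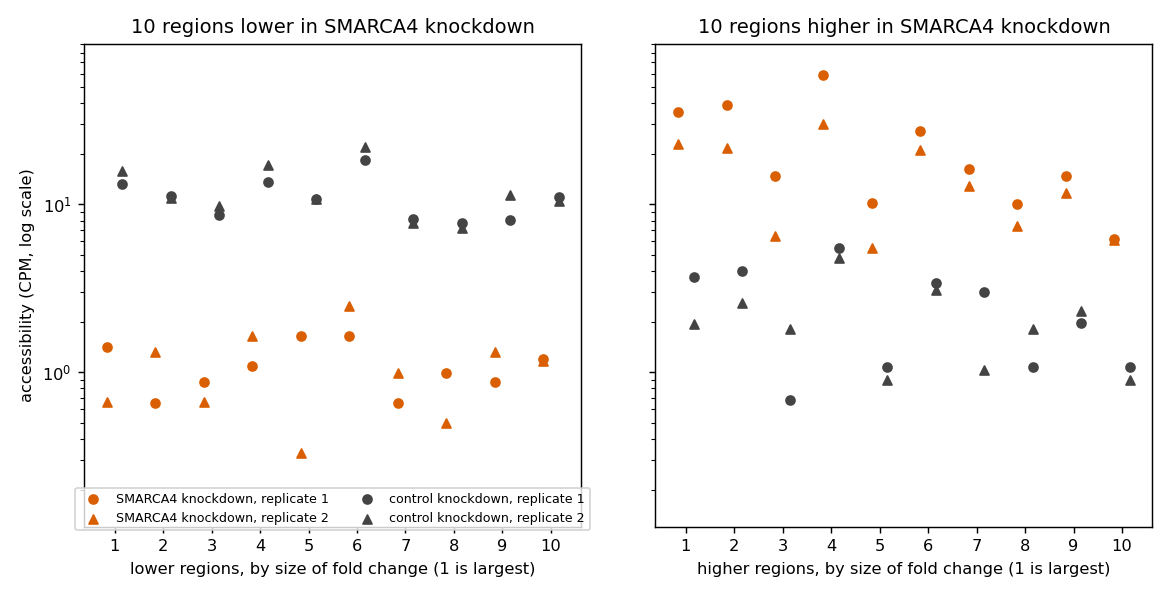
Accessibility in CPM on a log scale in each of the 4 libraries, for the 10 regions with the largest fold change among lower regions (left) and among higher regions (right), in order of size. Orange marks are SMARCA4 knockdown and grey marks control knockdown, circles replicate 1 and triangles replicate 2; the colours do not overlap within any region, with 0.331 to 2.48 CPM against 7.2 to 22 CPM on the left and 5.46 to 58.5 CPM against 0.683 to 5.46 CPM on the right.

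Losses were most frequent at well accessible and broad regions, and rarer again at the most accessible. With regions in 10 equal classes of mean CPM over the 16 libraries, the share that fell was 2.36% in the lowest class and 15.1% in the eighth and in the ninth, and it was 5.16% in the highest. The share that rose was 0.563% in the lowest class, 6.06% in the ninth and 3.36% in the highest. Since counts limit what can be called, the low shares at the weakest regions were measured at the least precision. In the highest class, where counts are largest, called regions had moderate changes, with median log2 fold changes of -0.887 among lower and 0.813 among higher regions.

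Losses varied with width more than gains did. Regions that fell had a median width of 749 bp and regions that rose one of 648 bp, against 622 bp over all regions tested. With regions in 4 classes of width, 15% fell and 2.74% rose in the broadest class, whereas 1.29% fell and 2.06% rose in the narrowest, of 501 bp or less. The narrowest class had a median log2 fold change of 0.28 and the broadest one of -0.13, and this order held in both replicate pairs, at 0.125 and -0.0779 in replicate 1 and at 0.305 and -0.185 in replicate 2. Within the most accessible of 4 classes of regions the order was the same, with 8.55% higher and 1.19% lower among the narrowest and 3.49% higher and 13.2% lower among the broadest. In ARID2 knockout cells the same knockdown gave medians of -0.0425 in the narrowest and 0.0821 in the broadest class, the opposite order. ARID2 knockdown against the same wild-type controls gave 0.163 and -0.179. Against these controls both knockdowns gave 0.297 and -0.135, and SMARCA4 knockout cells with the control knockdown gave 0.259 and -0.0512. The SMARCA4 knockout of the knockout table, which shares no library with these, gave 0.00138 and -0.0161.

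Chromosomes differed widely in how many of their regions fell. The share of regions that fell was highest on chromosome 4 at 11.9%, chromosome 13 at 11.2% and the X chromosome at 10.5%. It was lowest on chromosome 19 at 0.675%, chromosome 22 at 1.29% and chromosome 17 at 1.98%. Gains had another order, with 5.36% of regions on chromosome 15, 5.28% on chromosome 19 and 4.62% on chromosome 16, and 1.32% on chromosome 13. On 6 of 23 chromosomes more regions rose than fell, and on the other 17 more fell than rose. Chromosome 19 had 23 regions that fell and 180 that rose, and chromosome 4 had 1143 that fell and 190 that rose.

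These differences were related to accessibility across chromosomes, and stayed when only accessible regions were counted. Across the 23 chromosomes, the share that fell was correlated at r = -0.868 with the share of regions in the most accessible of the 4 classes, which was 49.5% on chromosome 19 and 18.9% on chromosome 4. Chromosomes share libraries and depth, and the value is a description. Single regions did not follow that relation, with 3.01% lower in the least accessible class and 11.2% in the most accessible. Within that class, 20.9% of regions fell and 4% rose on chromosome 4, and 0.83% fell and 5.99% rose on chromosome 19. The median log2 fold change of all regions of chromosome 19 was 0.30, with 0.209 and 0.328 in the 2 replicate pairs. It was 0.23 for the same knockdown in ARID2 knockout cells and 0.22 in the SMARCA4 knockout of the knockout table, neither of which shares a library with it. For chromosome 4 the medians were -0.09 in wild-type cells, -0.10 in ARID2 knockout cells and -0.16 in the knockout. Chromosome 15 differed between these readouts, at 0.27 for the knockdown in wild-type cells, 0.08 in ARID2 knockout cells and 0.07 in the knockout, beside 0.126 for ARID2 knockdown in wild-type cells.

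**Figure D3:**
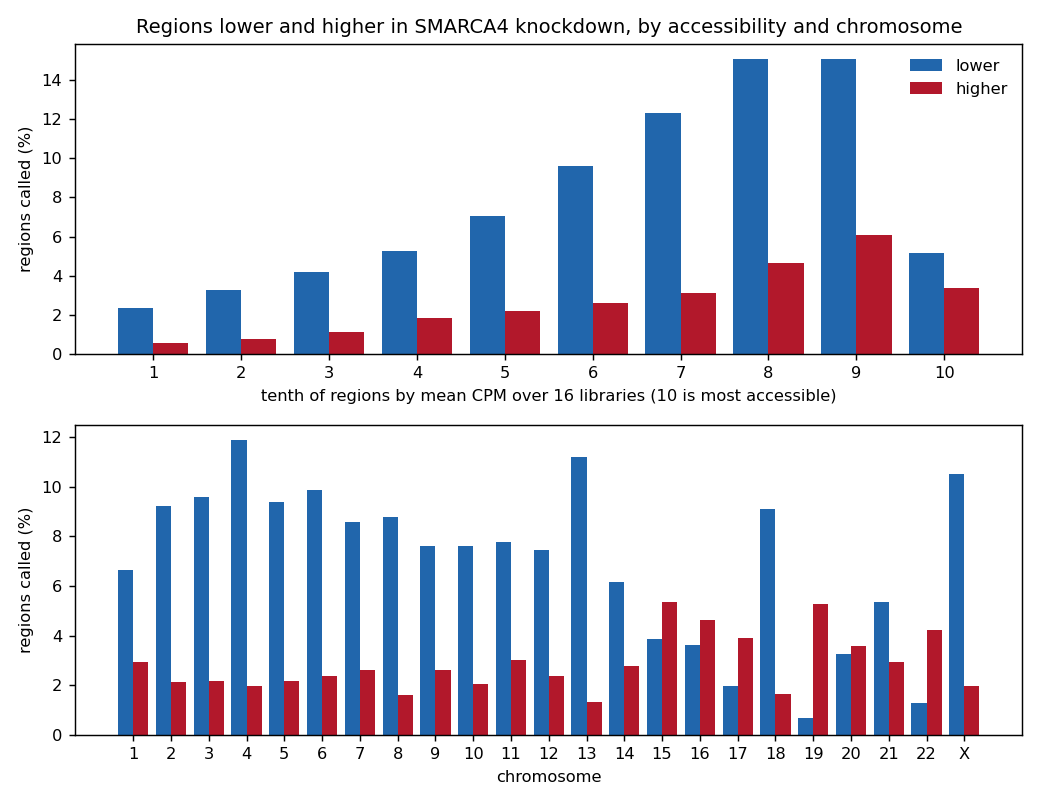
Share of tested regions called lower (blue) and higher (red) in SMARCA4 knockdown, in percent, by 10 classes of mean accessibility (upper panel) and by chromosome (lower panel). Losses reach 15.1% in the eighth and the ninth class and 11.9% on chromosome 4, and they are below gains on chromosomes such as 19, where 0.675% fell and 5.28% rose.

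Regions that fell lay near each other, as did regions that rose. Of the lower regions, 16.2% had another lower region within 10 kb, against 2.78% of higher regions and 7.63% of all regions tested. Of the higher regions, 9.66% had another higher region within 10 kb, against 0.96% of lower regions and 3.45% of all. The median distance to the nearest other lower region was 52.6 kb for lower regions, 238 kb for higher regions and 109 kb for all. To the nearest other higher region it was 670 kb for lower, 115 kb for higher and 301 kb for all regions.

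In windows of 1 Mb with at least 20 regions tested, a median of 7.14% of regions fell and 1.61% rose. The densest loss was on the X chromosome between 29 and 30 Mb, where 25 of 58 regions fell (43.1%) and none rose. Next came chromosome 13 between 66 and 67 Mb with 14 of 35 regions lower, chromosome 11 between 40 and 41 Mb with 10 of 26 and between 80 and 81 Mb with 17 of 45, and chromosome 2 between 117 and 118 Mb with 9 of 24. No region rose in any of these 5 windows. These windows were also read in comparisons that share no library with the wild-type one. The X window had a median log2 fold change of -0.593 for the knockdown in ARID2 knockout cells, which shares the fit and its block. In the SMARCA4 knockout of the knockout table its median was -1.1. All 5 windows had negative medians in both, from -0.718 to -0.383 and from -1.87 to -0.367.

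Gains were densest on chromosome 12 between 50 and 51 Mb, where 13 of 74 regions rose (17.6%) and none fell. Chromosome 15 between 20 and 21 Mb had 7 of 44 regions higher, and chromosome 16 between 28 and 29 Mb had 9 of 58. The window on chromosome 12 had medians of 0.263 for the knockdown in ARID2 knockout cells and 0.254 in the SMARCA4 knockout, and the window on chromosome 16 had 0.121 and 0.159. The window on chromosome 15 had medians of 0.613 for the knockdown in wild-type cells, -0.0466 in ARID2 knockout cells and -0.0482 in the knockout.

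Whether the same knockdown acts alike without ARID2 was read from ARID2 knockout cells with the SMARCA4 or the control knockdown, which share no library with the wild-type comparison. Accessibility fell at 1767 regions (1.21% of 145617) and rose at 2405 (1.65%) in those cells. Without the block, 203 were lower and 81 higher. Without ARID2 knockout control replicate 1 there were 176 lower and 270 higher regions, and without SMARCA4 knockdown replicate 2 in those cells there were 262 and 273. Without control replicate 2 there were 1153 higher regions, and without SMARCA4 knockdown replicate 1 there were 769.

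The regions that had fallen in wild-type cells also tended to be lower in ARID2 knockout cells. At 11565 of them the median log2 fold change there was -0.64, against 0.02 over all regions tested, and 90% were below 0, against 48.9% of all. Of these regions, 1382 were also called lower, which is 11.9% of the wild-type list and 78.2% of the list in ARID2 knockout cells, and none was called higher. At the regions that had risen in wild-type cells the median was 0.49. Of these, 619 were also called higher, 16.3% of the wild-type list and 25.8% of the other, and 1 was called lower. Across 72808 regions of above-median accessibility the fold changes in the 2 backgrounds correlated at r = 0.594, a description over regions that share the region list, the fit and its block.

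The named regions followed the same pattern unevenly. Of the 10 largest losses, 2 also passed the threshold in ARID2 knockout cells, where 1.21% of all regions fell. Of the 10 largest gains, 8 did, where 1.65% of all regions rose. The loss at chr12:74412381-74413133 was -3.03 there, with 1.4 and 0.583 CPM in ARID2 knockout cells with the SMARCA4 knockdown and 8.1 and 7.36 CPM in those with the control. The gain at chr10:121687715-121688416 was 3.51 there, with 40.1 and 29.1 CPM with the SMARCA4 knockdown and 4.42 and 1.88 CPM with the control. The gain at chr4:39666464-39667303 was 2.94, with 45 and 35 CPM against 5.6 and 4.85 CPM. In each of these 3 regions the libraries of the 2 groups did not overlap in ARID2 knockout cells either. The 3 were picked from those that passed the threshold there. The share of all regions without overlap was not counted in those cells, and in wild-type cells it was 24.3% below and 24.1% above.

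A direct test of the difference between the 2 backgrounds called 2 of 145617 regions (0.00137%), both with the larger loss in wild-type cells, and 0 with a larger gain, in edgeR's quasi-likelihood test with Benjamini-Hochberg adjustment. At an unadjusted p of 0.05 it gave 8287 and 5447 regions. At chr1:221682599-221683228 the wild-type libraries had 1.42 and 1.32 CPM with the SMARCA4 knockdown and 11.2 and 11.3 CPM with the control, while the ARID2 knockout libraries had 4.78 and 3.21 CPM with the SMARCA4 knockdown and 2.65 and 3.44 CPM with the control. The difference of log2 fold changes was -3.39 ± 0.596 (SE), with an adjusted p of 0.0112. At chr4:171226654-171227283 the ARID2 knockout libraries had 5.58 and 3.06 CPM with the SMARCA4 knockdown and 6.92 and 5.32 CPM with the control. There the difference was -3.2 ± 0.599 (SE), with an adjusted p of 0.0278. In both regions the control libraries of wild-type cells were above every ARID2 knockout library. Without the block the adjusted p were 0.0884 and 0.31 in edgeR's quasi-likelihood test, and DESeq2 called 0 regions.

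Set directly against ARID2 knockdown in the same wild-type cells, SMARCA4 knockdown was lower at 7011 regions (4.81%) and higher at 3070 (2.11%). Without the block there were 3762 lower and 434 higher regions. Of the 11566 regions that fell against the control, 5865 (50.7%) were also lower than with the ARID2 knockdown, and of the 3809 that rose, 1075 (28.2%) were higher. ARID2 knockdown itself differed from the control knockdown at 0 lower and 4 higher regions by the same test, with 7233 and 5105 at an unadjusted p of 0.05. The direct comparison shares the SMARCA4 knockdown libraries with the comparison against the control, so its counts in these lists are no independent support. Without ARID2 knockdown replicate 1 it gave 1520 lower and 420 higher regions, and without its replicate 2 it gave 1258 higher. Without SMARCA4 knockdown replicate 1 it gave 2267 and 412, and without replicate 2 it gave 4135 and 1372.

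The largest direct loss was at chr1:97610610-97611590, with 2.18 and 1.82 CPM in SMARCA4 knockdown and 26.1 and 17.1 CPM in ARID2 knockdown cells. The control libraries had 13.1 and 13.5 CPM, in between. The difference was -3.41 ± 0.346 (SE). The largest direct gain was chr10:121687715-121688416, with 39 and 21.5 CPM in SMARCA4 knockdown and 2.36 and 0.431 CPM in ARID2 knockdown cells, a log2 fold change of 4.38 ± 0.34 (SE). In both regions the ARID2 knockdown libraries lay on the far side of the control libraries from SMARCA4 knockdown, and neither region was called in ARID2 knockdown against the control.

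Wild-type cells with both knockdowns gave values beside those of SMARCA4 knockdown alone. The regions that fell with SMARCA4 knockdown held 5.2% and 5.43% of depth-scaled reads there, 6.22% and 6.63% with both knockdowns, 12.3% and 10.7% with ARID2 knockdown, and 12.4% and 13.3% with the control. All of the 10 largest losses and 10 largest gains also passed the threshold with both knockdowns against the control, where 6.77% of all regions fell and 1.87% rose, and none did with ARID2 knockdown, where 0.00275% of all passed it. These comparisons share the control libraries.

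Knockdown and knockout of SMARCA4 were compared within the knockdown table, against SMARCA4 knockout cells given the control knockdown. Direct testing called 1039 regions lower (0.714%) and 2146 higher (1.47%) in the knockdown. Without the block, 306 were lower and 837 higher. At the regions that fell with the knockdown, the median difference from the knockout was 0.02, with 276 lower and 458 higher regions of 11566. At those that rose it was 0.41, with 15 lower and 221 higher regions of 3809. Both lists were chosen on the SMARCA4 knockdown libraries that also enter this contrast, which favours lower values at the first list and higher values at the second, so these counts are no independent result. The lower regions held 5.2% and 5.43% of depth-scaled reads in the knockdown, and 5.23% and 5.53% in the knockout cells. Without SMARCA4 knockdown replicate 1 the direct test gave 280 lower and 606 higher regions, and without its replicate 2 it gave 464 and 1351. Without knockout replicate 1 it gave 497 and 563, and without knockout replicate 2 it gave 416 lower regions.

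Some regions were more open in the knockdown than in the knockout cells. At chr9:106007563-106008141 the SMARCA4 knockdown libraries had 21.7 and 14.9 CPM, against 0.499 and 1.48 CPM in the SMARCA4 knockout cells, a log2 fold change of 4.19 ± 0.39 (SE). The wild-type control libraries had 24.1 and 27.8 CPM, and the knockdown did not pass the threshold against them (-0.55, adjusted p 0.178 in edgeR's quasi-likelihood test). At chrX:21001378-21002008 the values were 18.6 and 8.1 CPM in the knockdown and 1.37 and 0.27 CPM in the knockout cells, with 26.3 and 24.3 CPM in the control libraries. Against these controls the knockdown fell there, by a log2 fold change of -0.93 (adjusted p 0.0141 in edgeR's quasi-likelihood test). In the separate knockout table both clones were near empty at these 2 regions, with 0.654 to 2.13 CPM at the first and 0.213 to 1.75 CPM at the second.

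The largest of these differences was at chr11:16841737-16842452, with 13.2 and 11.6 CPM in the knockdown and 0 counts in both knockout libraries. Taking 3 counts over the 2 libraries as the floor, the knockdown was at least 64.6-fold higher. In the knockout table the same region had 0.218 and 0.212 CPM in the 2 libraries of SMARCA4 knockout clone 6, and 15 and 18.1 CPM in those of clone 4, beside 15.6 and 11.3 CPM in wild-type cells. The gap was thus present in 1 of the 2 clones.

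In the other direction, chr4:116585331-116586023 had 3.06 and 2.48 CPM in the knockdown and 22.1 and 16.6 CPM in the knockout cells, against 3.41 and 3.73 CPM in control cells. The difference was -2.8 ± 0.335 (SE). The knockdown did not pass the threshold against the control there, with an adjusted p of 0.597 in edgeR's quasi-likelihood test. At chr3:147167370-147168012 the knockdown libraries had 2.18 and 0.662 CPM, the knockout cells 11.7 and 9.3 CPM and the control libraries 6.83 and 7.46 CPM. The knockdown lay below the control, whereas the knockout did not pass the threshold in either table, with log2 fold changes of 0.54 (adjusted p 0.283) and -0.01 (adjusted p 0.992), both in edgeR's quasi-likelihood test. Of the 10 largest gains of the knockdown, 1 was also higher than in the knockout cells, against 1.47% of all regions tested. At this region, chrX:31826369-31826870, the knockout cells had 0.874 and 1.89 CPM and the difference was 2.7 (adjusted p 5.83e-06 in edgeR's quasi-likelihood test).

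The knockout table, which shares no library with the knockdown, gave an independent reading of permanent SMARCA4 loss. There 2 knockout clones with 2 libraries each were compared with 2 wild-type libraries, and 22045 regions fell (15.1% of 145530) and 9713 rose (6.67%). Of 11565 regions that fell with the knockdown, 7678 also fell in the knockout, which is 66.4% of the knockdown list and 34.8% of the knockout list, and 115 rose. Of 3800 regions that rose, 804 also rose in the knockout, 21.2% of the knockdown list and 8.28% of the knockout list, and 100 fell. Without wild-type replicate 1 the knockout gave 13917 lower and 6210 higher regions, and without wild-type replicate 2 it gave 4596 higher. The shared gains were then 12.8% and 13.1% of the knockdown list.

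Losses were found again in a larger share than gains, though the difference between the shares was not tested. The median knockout log2 fold change was -1.12 at the regions that fell with the knockdown, 0.32 at those that rose and -0.04 over all regions tested. At regions where the knockdown loss was 4-fold or more the knockout median was -1.35, and at called losses under 2-fold it was -0.682. At gains it did not grow with the size of the knockdown gain, at 0.352 for gains under 2-fold and 0.366 for gains of at least 4-fold. Across 72660 regions of above-median accessibility the 2 fold changes correlated at r = 0.613, over regions that share the region list and the cell line but no library.

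Read the other way, regions chosen by the knockout had knockdown medians of the same sign. Regions chosen for a large value in either comparison have smaller values in the other by the choice itself, so the sizes below do not rank knockdown and knockout. At the 22038 regions that fell in the knockout, the median log2 fold change of the knockdown was -0.76, 86.1% were below 0, and 34.8% were called lower, against 7.94% of all regions tested. At the 9711 regions that rose, the median was 0.27 and 8.28% were called higher, against 2.62% of all. Where the knockout loss was between 4-fold and 8-fold, with a median log2 fold change of -2.23 over 1829 regions, the knockdown had a median of -1.3 and 64.9% of regions fell. Where its gain was between 4-fold and 8-fold, with a median of 2.27 over 247 regions, the knockdown had a median of 0.50 and 15% rose.

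**Figure D4:**
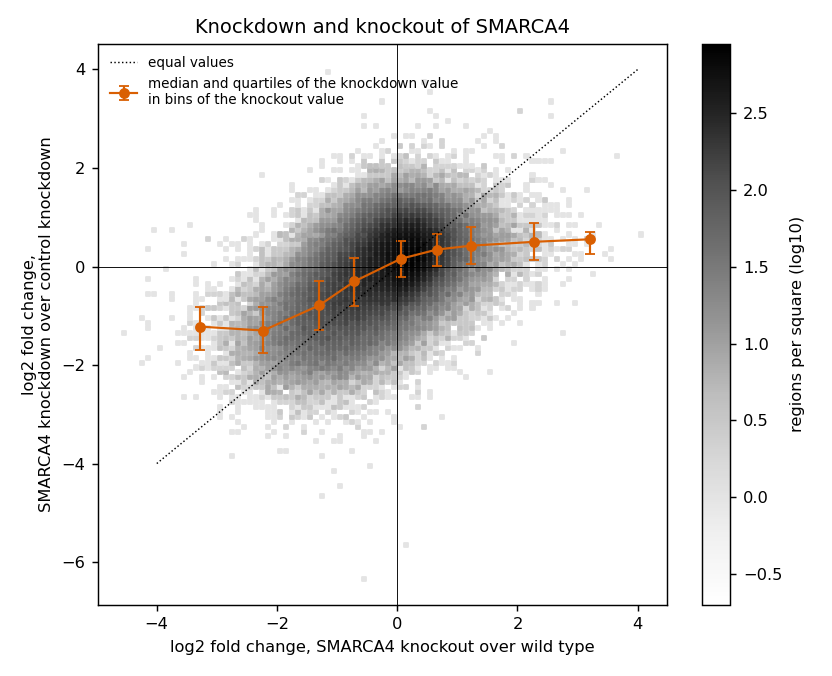
Log2 fold change of SMARCA4 knockdown over control knockdown (vertical axis) against that of SMARCA4 knockout over wild type in the knockout table (horizontal axis), with regions binned in grey squares. Orange points give the median and quartiles of the knockdown value in bins of the knockout value and the dotted line marks equal values; the medians stand at -1.3 where the knockout median is -2.23 and at 0.50 where it is 2.27.

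Of the 10 largest losses of the knockdown, 9 also fell in the knockout, where 15.1% of all regions fell. Of the 10 largest gains, 7 also rose, where 6.67% of all regions rose. The exceptions were the loss at chr7:111960992-111961846, with a knockout log2 fold change of -0.65, and the gains at chr11:85962349-85962990 (0.80), chr21:37727347-37728157 (0.69) and chrX:31826369-31826870 (-0.06). The loss at chrX:81913717-81914458, where SMARCA4 knockdown gave -3.02, was -2.95 in the knockout. There the 4 knockout libraries had 2.29 to 5.02 CPM and the wild-type libraries 24.6 and 22.4 CPM. The gain at chr4:39666464-39667303 was 2.56 in the knockout, with 23.8 to 38.4 CPM in the knockout and 4.1 and 6.32 CPM in wild-type libraries.

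At the same lists the knockouts of other BAF subunits ranged from those that went with the knockdown to those that went against it. Several had medians near 0 at the regions that fell, such as ACTB at 0.00457 and BRD9 at 0.00875. The knockout libraries used covered 21 knocked-out genes in 23 clones. All were compared with the same 2 wild-type libraries, so they are not independent of each other. SMARCA4 and ARID1A were read from 2 clones each, and every other gene, BCL7B and ARID1B included, from a single clone with 2 libraries. For these genes, effects of the gene and of the clone were not separated. Second clones of ARID1B and BCL7B were available but were not used. After SMARCA4, the most negative medians at the regions that fell with the knockdown were those of ARID1A, the DNA-binding subunit of canonical BAF, at -0.797 and of SMARCC1, a scaffold subunit of all BAF forms, at -0.632. Of these regions, 49.5% fell in the ARID1A knockout, where 11.2% of all regions fell, and 26.6% fell in the SMARCC1 knockout, where 4.52% of all did. ARID2, of PBAF, followed with a median of -0.227, and 5.95% of the regions fell in its knockout, where 1.16% of all did. PBRM1, also of PBAF, had a median of 0.0455.

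Other knockouts, each read from a single clone, had higher accessibility at the regions that SMARCA4 knockdown closed. The BCL7B knockout had a median of 0.401 there, and 17.7% of these regions rose in it, where 3.54% of all regions did. The knockout of ARID1B, the paralogue of ARID1A, had a median of 0.313, and 22.8% rose, where 5.83% of all did. BCL11B, SMARCD3, BCL11A and DPF2 had medians of 0.233, 0.223, 0.196 and 0.166. The knockout of SMARCA2, the paralogue of SMARCA4, had a median of 0.102, with 0.553% of the regions lower and 0.242% higher, where 0.164% and 0.0722% of all were. At the regions that rose with the knockdown the order of medians was largely turned round. They were 0.32 for SMARCA4, 0.225 for SMARCC1, 0.199 for ARID1A and 0.139 for ARID2, and -0.184 for BCL7B and -0.105 for ARID1B. Over all regions the ARID1B median was -0.0335. In its knockout 3.74% of the regions that rose with the knockdown were lower and 5.84% higher, near the 3.52% and 5.83% of all. In the BCL7B knockout 3.24% were lower and 1.03% higher, where 1.42% and 3.54% of all were.

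Regions chosen by these knockouts were also read in the knockdown, whose libraries took no part in the choice and in which 7.94% of all regions tested fell. At the 6573 regions that fell in the SMARCC1 knockout, the median log2 fold change of SMARCA4 knockdown was -0.964 and 46.9% fell. At the 16345 that fell in the ARID1A knockout it was -0.727 and 35% fell, and at the 1695 that fell in the ARID2 knockout it was -0.768 and 40.6% fell. At the 5141 regions that rose in the BCL7B knockout it was -0.783 and 39.8% fell, and at the 8480 that rose in the ARID1B knockout it was -0.555 and 31.1% fell. Several lists were lower with SMARCA4 knockdown whichever way they had been chosen, such as those of the SMARCD1 knockout, with medians of -0.444 at regions that fell in it and -0.601 at regions that rose. Those of the SMARCA2 knockout had -0.523 and -0.452. The regions that fell in the ARID1B knockout had a median of -0.165, with 13.3% lower and 2.78% higher, and those that fell in the BCL7B knockout had -0.0434, with 12% lower and 5.95% higher. The accessibility of the regions that changed in each knockout was not compared with that of all regions, and these shares were not adjusted for it. Gains were fewer, with 13.8% of the 1470 regions that rose in the SMARCC1 knockout and 9.09% of the 2783 that rose in the ARID1A knockout also higher with SMARCA4 knockdown, against 2.62% of all regions tested.

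**Figure D5:**
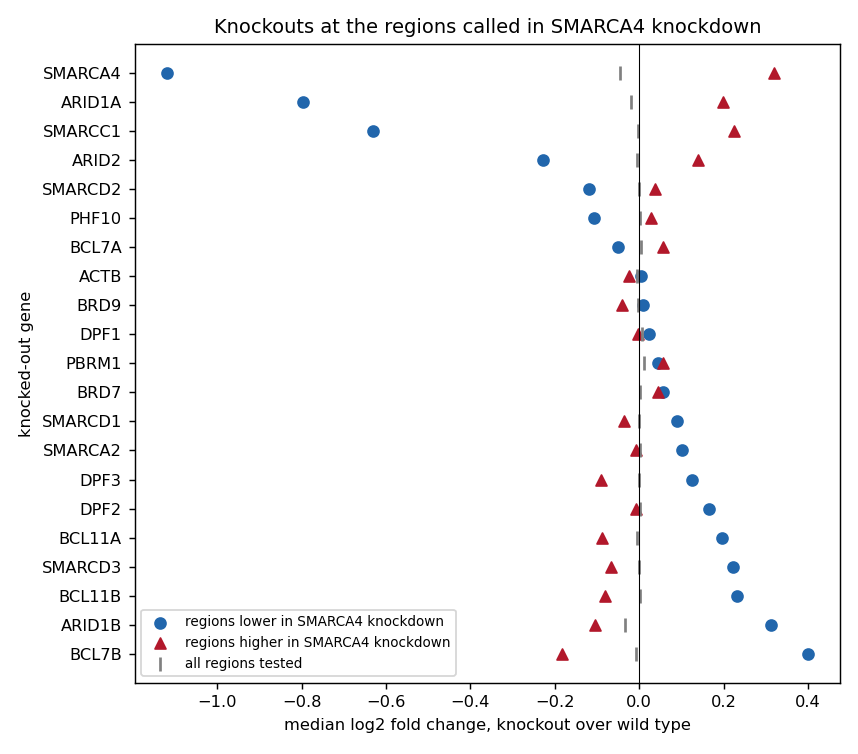
Median log2 fold change of each of 21 knockouts over wild type (horizontal axis) at the regions that fell (blue circles) and rose (red triangles) with SMARCA4 knockdown, with the median over all regions as grey ticks. Knockouts are ordered by the blue value, which is -1.12 for SMARCA4 and -0.797 for ARID1A at the top and 0.401 for BCL7B at the bottom, and most red values lie on the other side of 0, with 0.32 for SMARCA4 and -0.184 for BCL7B.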

How the data were processed

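The authors deposited unscaled read counts in 2 tables of ATAC-seq libraries: 145730 regions in 16 knockdown libraries and 145536 regions in the knockout libraries, of which 48 were used. The submitters' processing notes name hg19, Bowtie2 2.2.4, Picard 1.118 and MACS2 2.1.1.20160309, with no role or order. How regions were merged and reads counted, and whether starts count from 0 or 1, is not given in the sources used here. Of 74 labelled samples, 72 matched a column by title. The 2 others were not analysed here, and 2 columns of unlabelled libraries were not used. Also left out were second clones of ARID1B and BCL7B, the SMARCC2 knockout and further wild-type libraries with columns among the knockout libraries. Titles and another label field name the knockdown reagent differently, so only the word knockdown is used.

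Counts were tested in R 4.3.3 with edgeR 4.0.16 (quasi-likelihood test, 2-sided; TMM normalization; default expression filter; Benjamini-Hochberg adjustment across every region in the fit, threshold 0.05). The knockdown fit used all 16 libraries in 8 groups with the replicate number as a block (7 residual degrees of freedom, 145617 regions). The knockout libraries were fitted with a coefficient for each clone and no block (24 residual degrees of freedom, 145530 regions), and the 2 SMARCA4 clones were averaged. Standard errors come from the fold change and its F statistic. CPM uses TMM-scaled library sizes. With 2 libraries against 2, an exact permutation test of a single value cannot give less than p = 0.333, so only the fit across all regions was used. DESeq2 1.42.0 and other normalizations, filters and left-out libraries were alternatives. The tests were also tried on simulated counts, given the spread of the knockdown fit. Same-numbered libraries of different groups deviated together at r = 0.0607 to 0.434 over 28 pairs of groups (0.18 for this comparison), above 0.1 in 25 of them. The block is therefore used because the comparison was defined with it, and results without it are given beside. Per the labels, no paired cultures are named. Reads carry no molecular identifiers, so the floor of 3 counts covers counting error only. The comparison, lists and naming rule were chosen with earlier results of these data known. Gene lists drawn up for annotated loci were not used, since annotation of hg19 was not used here.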

Additional observations from a re-analysis of the deposited data

Results flagged for a closer look

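The effect of SMARCA4 knockdown differed between wild-type and ARID2 knockout cells at 2 regions in the direct test, both with the larger loss in wild-type cells. The difference of log2 fold changes was -3.39 at chr1:221682599-221683228 and -3.2 at chr4:171226654-171227283. At chr1:221682599-221683228 it kept its sign in every alternative run but did not pass the threshold in 7 of them, among them DESeq2 (adjusted p 0.0735) and the fit with no replicate block (0.0884). At chr4:171226654-171227283 it did not pass in 8, among them DESeq2 (0.324) and no replicate block (0.31). Wild-type cells with the control knockdown had 11.2 and 11.3 CPM at the first region and 13.2 and 15.7 CPM at the second, whereas the untreated wild-type libraries of the knockout table had 3.41 and 3.22 CPM and 3.41 and 2.74 CPM there. The tables were scaled separately, and the part of this gap in the difference was not tested.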

How the results depend on the processing

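Directions of the named values held in all 456 alternative values of 37 named regions and contrasts, of which 441 also stayed on their side of the threshold, 15 lost it and 0 reversed. The 15 lost values all belong to the difference between wild-type and ARID2 knockout cells. Counts moved more. With no replicate block, the wild-type knockdown gave 7216 lower and 1125 higher regions, the ARID2 knockout cells 203 and 81, their difference 0 lower, the contrast with ARID2 knockdown 3762 and 434, and that with the knockout 306 and 837. DESeq2 with the block gave 1863 higher regions for the wild-type knockdown, 1084 lower in ARID2 knockout cells, 0 lower for the difference, 4668 lower against ARID2 knockdown and 681 lower against the knockout. Cyclic loess offsets gave 792 higher in ARID2 knockout cells, 9 lower and 13 higher for the difference, and 1906 higher against ARID2 knockdown. For the wild-type knockdown, an adjusted p of 0.01 gave 6937 lower and 1113 higher, and the 4 libraries alone with no replicate block 2323 higher.

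Leaving out 1 library gave 4643 to 7374 lower and 986 to 1703 higher regions for the wild-type knockdown, 176 to 1394 and 270 to 1153 in ARID2 knockout cells, and 0 to 8 and 0 to 2 for their difference. It gave 1520 to 5746 and 412 to 1372 against ARID2 knockdown, 280 to 497 and 563 to 1444 against the knockout, and 13917 to 19944 and 4596 to 11218 for the knockout itself. The share of knockdown gains also called in the knockout was 12.8% to 24%, and that of losses 48.4% to 62.8%. Gains made up 24.8% of the calls under TMM, 22.7% under RLE, 31.2% under library totals, 25.7% under cyclic loess and 13.5% with no replicate block. Fewer libraries, and the block's share of the spread, enter these fits by construction, and other causes were not tested. With 2 libraries a group of 5674304 to 11355471 counts, small changes at weakly accessible regions were not detectable. In the simulated counts, many 2-fold changes were missed too. For the wild-type knockdown, 17 of 100 regions simulated with a 2-fold change were called, and 94 of 100 with a 4-fold change. Of 145166 regions simulated without change, 8 were called. A region without a call can therefore still have changed 2-fold. The difference between wild-type and ARID2 knockout cells was not simulated.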
